A study of Mus musculus with 10 samples.

Results

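The Hedgehog pathway was followed through the reprogramming of mouse fibroblasts by 9 of its core genes, Ptch1, Smo, Gli1, Gli2, Gli3, Hhip, Sufu, Gas1 and Boc, chosen by symbol out of 45706 genes. RNA was sequenced from 10 libraries, 2 at each of 5 stages. The starting cells (MEF) were unsorted embryonic fibroblasts of a C57BL/6 x 129 background, genotype OKSM Col1a1/M2rtTA ROSA26, in MEF medium with no doxycycline. The same genotype in ESC medium with doxycycline at 1 µg/ml and ascorbic acid at 50 µg/ml was taken at day 3 as the whole culture, and at days 6 and 9 after sorting for cells labelled SSEA+. Doxycycline switches on a polycistronic cassette of the reprogramming factors Pou5f1 (Oct4), Klf4, Sox2 and Myc through the M2rtTA transactivator. The reference was the embryonic stem cell line V6.5 (ESC), C57BL/6 x 129, unsorted, in ESC medium on irradiated feeder cells. The induced stages therefore differ from MEF in factors, medium and ascorbic acid together, day 6 differs from day 3 in time and sorting together, and ESC is 1 cell line.

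Hedgehog signalling starts at the cell surface and largely runs through the primary cilium. Without ligand, the receptor Ptch1 keeps the membrane protein Smo inactive, Sufu holds the Gli transcription factors back, and Gli3 is processed to a repressor. When a ligand (Sonic, Indian or Desert hedgehog) binds Ptch1 with the help of the co-receptors Gas1, Boc and Cdon, Smo becomes active and full-length Gli2 and Gli3 act as activators. Ptch1, Gli1 and Hhip, a decoy that binds ligand, are widely used as transcriptional readouts of the pathway because they are Gli targets in many tissues, and fibroblasts are a common cell for studying the response.

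Promoter windows are shown for 4 members that the results below return to: Gas1 and Ptch1, which moved in opposite directions, and Gli2 and Gli3, which held a KLF site. RefSeq (GRCm38.p6) held a window for 7 of the 9 members, with none for Gli1 and Boc. Searched on both strands from 250 bases before to 50 after the start were a Gli site (GACCACCCA), a site of the KLF family, to which the cassette factor Klf4 belongs (GGGNGTGG), and the GC box (GGGCGG). The 250 bases before the start are printed 5′ to 3′ on the gene's strand, with matches in capitals.
Gas1, chr13:60177536-60177785, minus strand: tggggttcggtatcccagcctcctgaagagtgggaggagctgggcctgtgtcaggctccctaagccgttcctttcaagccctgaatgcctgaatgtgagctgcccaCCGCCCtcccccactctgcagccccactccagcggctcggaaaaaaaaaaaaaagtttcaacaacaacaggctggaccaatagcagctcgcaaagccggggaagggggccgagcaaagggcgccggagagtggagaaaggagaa
Ptch1, chr13:63565736-63565985, minus strand: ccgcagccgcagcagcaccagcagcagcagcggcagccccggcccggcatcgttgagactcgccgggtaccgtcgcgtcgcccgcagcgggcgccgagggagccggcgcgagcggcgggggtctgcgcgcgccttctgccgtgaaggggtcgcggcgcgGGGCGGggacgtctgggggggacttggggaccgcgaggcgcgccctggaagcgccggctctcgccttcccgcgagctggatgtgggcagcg
Gli2, chr1:119053620-119053869, minus strand: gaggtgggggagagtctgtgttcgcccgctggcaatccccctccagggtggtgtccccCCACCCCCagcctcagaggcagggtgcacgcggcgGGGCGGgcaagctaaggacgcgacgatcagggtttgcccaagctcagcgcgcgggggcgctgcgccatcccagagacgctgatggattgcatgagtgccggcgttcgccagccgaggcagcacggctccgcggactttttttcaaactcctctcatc
Gli3, chr13:15463473-15463722, plus strand: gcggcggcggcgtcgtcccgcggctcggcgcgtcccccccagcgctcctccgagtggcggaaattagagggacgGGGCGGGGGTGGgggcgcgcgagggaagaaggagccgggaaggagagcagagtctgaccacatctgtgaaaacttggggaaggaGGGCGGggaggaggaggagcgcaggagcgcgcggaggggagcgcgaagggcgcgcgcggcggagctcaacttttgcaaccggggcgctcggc
The Gli site was in 0 of the 7 windows and in 0.25% of all 32851 windows of the table. The KLF site was in 2 of 7, Gli2 and Gli3, against 17.6% of all windows, and the match in Gli3 overlaps a GC box. The Gli3 window is set on position 15463723, the annotated start of Gli3-002, which held 0.3% to 1.6% of Gli3 reads in the libraries. Gli3-001, with 96.5% to 99.6% of the reads, is annotated to start at 15463980, outside the window. The GC box was in 6 of 7, with Smo the exception, against 35.7% of all windows. The Smo window is set on position 29735497. Smo-001, with 99.1% to 99.8% of Smo reads, is annotated to start at 29735694, outside that window. The Gas1 window is set on position 60177535. Gas1-001, its only transcript, is annotated to start at 60177365, also outside. These are letter matches in short windows and say nothing of binding.

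Libraries held 29585876 to 38275024 estimated reads. Pou5f1, a check of induction, stood at 2.59 to 3.36 CPM (reads scaled to library size and TMM factor) in MEF and at 224 to 323 CPM in the induced libraries. MEF and induced libraries also differed in sex-linked genes, with Xist at 0.739 and 0.793 CPM in MEF against 930 to 1320 CPM at days 3 to 9, and Ddx3y at 86.4 and 90.6 CPM against at most 0.176 CPM. In ESC, Xist was at 11.3 and 9.0 CPM and Ddx3y at 26.1 and 26.8 CPM. Differences of the induced cells from MEF or from ESC cannot be told apart from differences between the source animals. The summed level of 15 fibroblast markers was 44000 to 44300 CPM in MEF, 8200 to 8230 at day 3, 1760 to 1770 at day 6, 748 to 764 at day 9, and, in ESC, 4350 to 4590. All 15 exceeded 1 CPM in MEF, with 4 under 1 CPM at day 9 and 1 in ESC. The summed level of 10 pluripotency markers rose from at most 2.47 CPM in MEF to at least 445 CPM at day 9 and 4190 CPM in ESC, and that of 10 epithelial markers from at most 18.1 to at least 1510 and 622 CPM. Summed endothelial markers (5 genes) went from 8.63 to 9.64 CPM in MEF to 130 to 133 CPM at day 3, and summed neural markers (4) from 201 to 206 to 86.2 to 88.7 CPM. Keratinocyte markers (4) were at 28.9 to 29.8 CPM at day 9 and at most 2.74 CPM at other stages, and macrophage markers (6) at 34.2 to 35.9 CPM in ESC and at most 12.7 CPM elsewhere. These 4 sums rest on few genes. At day 3, 2 endothelial and 3 neural markers were under 1 CPM, as were 2 keratinocyte markers at day 9 and 1 macrophage marker in ESC. The part of these shifts in the members' changes was not tested. Replicates are separate libraries of a stage, and nothing in the labels says whether they came from separate cultures.

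The pathway did not move as one. All 9 members were measured well enough to be tested, and they are counted as called at an adjusted p under 0.05 with at least a 2-fold change, beside the share of all 20165 tested genes called in that direction. From MEF to day 3, 1 member was higher (Ptch1; 14.6% of all genes) and 3 were lower (Gas1, Gli1 and Hhip; 14.5%), with a median log2 difference of -0.41 over the members and 0.08 over all genes. From day 3 to day 6, 2 were higher (Gli1 and Hhip; 9.26%) and 2 lower (Gas1 and Gli2; 10.2%), with medians of -0.29 and 0.03. From day 6 to day 9, 1 was higher (Gli1; 5.18%) and 2 lower (Gas1 and Gli2; 2.68%), with medians of -0.50 and 0.00.

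ESC had 4 members higher than day 9 (Gli1, Gli2, Hhip and Gas1; 18.6% of all genes) and 2 lower (Smo and Boc; 14.3%), with medians of 0.72 and 0.00. Over the whole induction, day 9 against MEF, 1 member was higher (Ptch1; 24.1%) and 5 were lower (Gas1, Boc, Gli1, Gli2 and Gli3; 19.8%), with medians of -1.06 and 0.19. ESC against MEF had 3 members higher (Ptch1, Gli1 and Hhip; 25.5%) and 4 lower (Gas1, Boc, Smo and Gli3; 20.6%), with medians of -0.81 and 0.10. These comparisons share the MEF, day 9 and ESC libraries. Library-size scaling without TMM moved the split of all called genes, from 2950 higher and 2923 lower to 3809 and 2483 for day 3 with MEF, from 4857 and 3994 to 6241 and 3284 for day 9 with MEF, and from 5142 and 4148 to 6553 and 3152 for ESC with MEF.

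**Figure D1:**
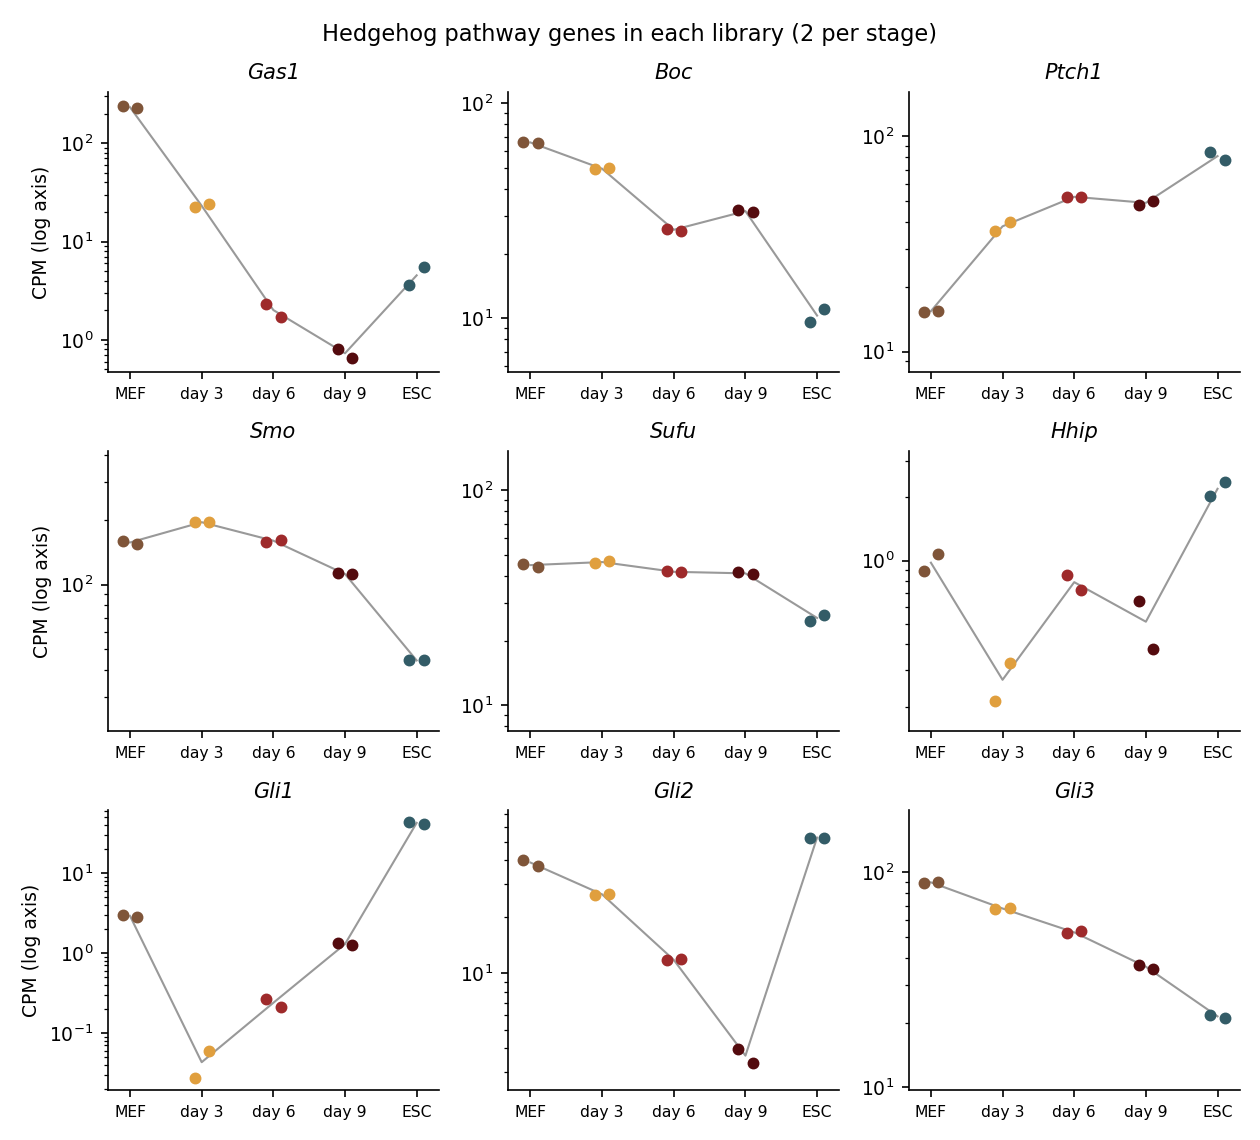
CPM of each member on a log axis (vertical, each panel with its own range) at the 5 stages (horizontal); each point is 1 library and the line joins stage means. Gas1 drops from over 200 CPM to under 1 CPM at day 9, Gli1 dips at day 3 and peaks in ESC, Gli3 steps down at every stage and Ptch1 is lowest in MEF.

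Gas1 (growth arrest specific 1; ENSMUSG00000052957.7, chromosome 13, 60174405 to 60177365, GRCm38) is a membrane-anchored co-receptor first known as a gene of growth-arrested fibroblasts. Its level was 237 and 226 CPM in the MEF libraries, 22.4 and 23.9 at day 3, 2.32 and 1.69 at day 6, 0.804 and 0.657 at day 9, and 3.59 and 5.47 in ESC. No 2 stages overlapped, and day 9 was the lowest. Gas1 fell at each induced stage, with log2 differences of -3.33 from MEF to day 3 (standard error 0.08, adjusted p by edgeR 8.2e-14), -3.52 from day 3 to day 6 (standard error 0.15, adjusted p by edgeR 6.0e-11) and -1.47 from day 6 to day 9 (standard error 0.30, adjusted p by edgeR 0.0016). The day 9 level was 319-fold below MEF, on 25 and 26 reads at day 9 against 6423 and 7417 in MEF. It was higher in ESC than at day 9 by a log2 difference of 2.66 (standard error 0.25, adjusted p by edgeR 2.9e-07). Fibroblast markers moved the same way: 12 of 15 were called lower at day 3 (14.5% of all genes), 15 of 15 lower at day 6 (10.2%), 6 of 15 lower at day 9 (2.68%) and 13 of 15 higher in ESC than at day 9 (18.6%). In bulk RNA, fewer cells of a type and less RNA per cell cannot be told apart, and the part of fibroblast or feeder RNA in these values was not tested.

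Boc (ENSMUSG00000022687.9, chromosome 16, 44485049 to 44558897), an immunoglobulin-family co-receptor, changed less. It was at 65.8 and 65.6 CPM in MEF, 49.2 and 50.0 at day 3, 26.1 and 25.5 at day 6, 31.8 and 31.3 at day 9 and 9.63 and 11.1 in ESC. Each stage stood apart from the next, and day 9 lay above day 6. The changes against the stage before were under 2-fold at days 3, 6 and 9, the largest a log2 difference of -0.94 at day 6 (standard error 0.05, adjusted p by edgeR 1.8e-09), and Boc was lower in ESC than at day 9 by -1.60 (standard error 0.06, adjusted p by edgeR 1.9e-11). The day 9 level against MEF passed narrowly, at -1.06 (standard error 0.05), and library-size scaling, at -0.77, ended that call. Per kb of transcript, Gas1 exceeded Boc 5.39- and 5.15-fold in the MEF libraries, whereas the ratio of Gas1 to Boc was 0.0378 and 0.0314 at day 9. Cdon, the related co-receptor, named here after its values were seen, was at 113 and 114 CPM in MEF, 44.9 and 46.7 at day 3, 19.6 and 18.5 at day 6, 21.7 and 22.1 at day 9 and 27.6 and 23.7 in ESC.

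Ptch1 (ENSMUSG00000021466.9, chromosome 13, 63508328 to 63573598), the ligand receptor and a negative regulator of Smo, went the other way. Its level was 15.3 and 15.5 CPM in MEF, 36.5 and 39.8 at day 3, 52.5 and 52.4 at day 6, 48.2 and 50.1 at day 9 and 84.3 and 77.7 in ESC. MEF was lowest and ESC highest, with no overlap between stages. Ptch1 was higher at day 3 than in MEF by 1.31 in log2 (standard error 0.07, adjusted p by edgeR 2.5e-10) and stood 1.68 above MEF at day 9 (standard error 0.06, adjusted p by edgeR 6.2e-12) and 2.40 above MEF in ESC (standard error 0.06, adjusted p by edgeR 8.2e-14). Day 9 was not distinguished from day 6, with a log2 difference of -0.09 (standard error 0.05, adjusted p by edgeR 0.22), and the ESC level was 1.65 times that of day 9, under the 2-fold minimum. On the TPM scale the day 3 difference was 0.73 on log2(TPM + 1) and 0.99 on log2(TPM + 0.1), both under the minimum.

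Most Ptch1 reads were assigned to 1 of its 8 transcripts. Ptch1-005 held 80.1% to 92.4% of them in the 10 libraries, and Ptch1-001, which starts at the promoter window printed above, held 6.5% to 19.2%. The start of Ptch1-005 is annotated at position 63564535 on chromosome 13 and that of Ptch1-001 at 63565735. The 2 day 3 libraries differed as much as any, with 17.6% and 6.5% on Ptch1-001, so the stages overlapped. TPM of Ptch1 was 5.13 and 7.13 in the day 6 libraries, on 1785 and 1732 reads. The short transcript Ptch1-009, of 305 bases, held 6.5 and 14.7 of those reads, and its part in the TPM difference was not tested.

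Smo (ENSMUSG00000001761.7, chromosome 6, 29735503 to 29761365), the signal-transducing membrane protein, was at 160 and 155 CPM in MEF, 195 and 196 at day 3, 157 and 162 at day 6, 113 and 112 at day 9 and 44.4 and 44.5 in ESC. Day 3 was the highest stage, and MEF and day 6 overlapped. Smo was lower in ESC than at day 9 by a log2 difference of -1.34 (standard error 0.04, adjusted p by edgeR 2.9e-13), and its differences between successive stages up to day 9 were each under 2-fold. Per kb, Ptch1 was at 0.0516 and 0.0539 times the Smo level in MEF, 0.230 and 0.242 times at day 9 and 1.03 and 0.942 times in ESC.

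Sufu (ENSMUSG00000025231.14, chromosome 19, 46396896 to 46488804), the cytoplasmic inhibitor that binds Gli proteins, was the steadiest member. It was at 45.6 and 44.1 CPM in MEF, 45.8 and 47.0 at day 3, 42.2 and 41.5 at day 6, 41.5 and 40.7 at day 9 and 24.6 and 26.4 in ESC. The highest stage mean was 1.82 times the lowest, and days 6 and 9 overlapped. No comparison of Sufu reached 2-fold. Its largest log2 difference was -0.81, ESC against MEF (standard error 0.05, adjusted p by edgeR 1.8e-09). The lower level in ESC was smaller on TPM, at 8.75 and 10.7 in MEF, 9.44 and 8.47 at day 9 and 8.17 and 9.08 in ESC. For ESC against day 9, the log2 difference was -0.69 in edgeR and -0.05 on either TPM scale.

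**Figure D2:**
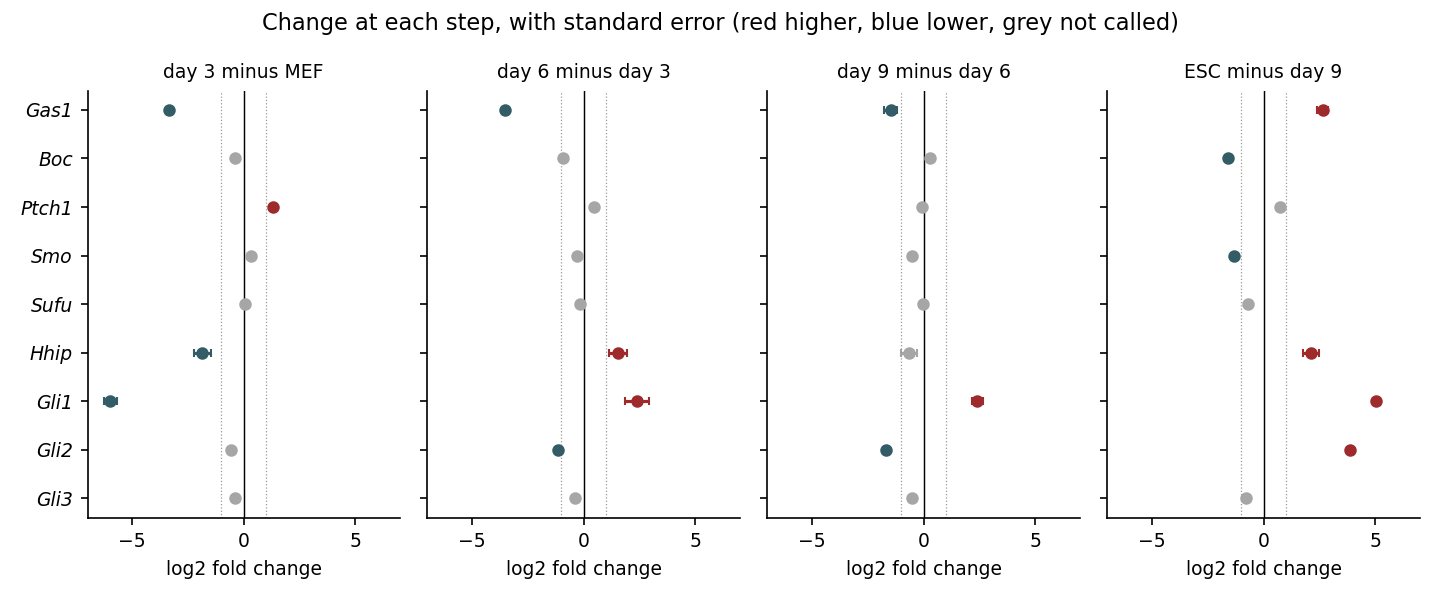
Log2 fold change of each member (horizontal, with standard error bars from the edgeR fit) at the 4 successive steps, 1 panel a step; dotted lines mark a 2-fold change. Gli1 spans -5.98 at the first step to 5.03 at the last, whereas Sufu stays within the dotted lines throughout.

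Gli1 (ENSMUSG00000025407.6, chromosome 10, 127329882 to 127341974), an activator that is itself a Gli target, nearly vanished at day 3 and partly returned by day 9. It had 80 and 93 reads in MEF (2.96 and 2.84 CPM), 1 and 2 reads at day 3 (0.0269 and 0.0591 CPM), 9 and 7 at day 6 (0.265 and 0.212 CPM), 41 and 50 at day 9 (1.32 and 1.26 CPM) and 1486 and 1530 in ESC (43.8 and 40.9 CPM). All 5 stages stood apart, with day 3 lowest and ESC highest. The 3 reads at day 3 against 173 in MEF put its level at 1.46% of MEF, with an exact 95% interval of 0.299% to 4.35% that covers counting error only.

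The change at day 3 had a log2 difference of -5.98 (standard error 0.30, adjusted p by edgeR 3.0e-10), whose size depends on those few reads. Gli1 then rose by 2.40 at day 6 (standard error 0.55, adjusted p by edgeR 0.0028) and by 2.41 at day 9 (standard error 0.25, adjusted p by edgeR 4.0e-06). In ESC, a separate cell line, Gli1 was higher than at day 9 by 5.03 (standard error 0.11, adjusted p by edgeR 2.9e-14). At day 9 it was still below MEF, by -1.16 (standard error 0.15, adjusted p by edgeR 6.6e-06), and in ESC it was above MEF by 3.87 (standard error 0.10, adjusted p by edgeR 8.9e-14), a 14.6-fold higher level. On TPM the rise at day 6 was 0.32 on log2(TPM + 0.1) and not called. Gli1 was at 0.00361 and 0.00825 TPM at day 3 and 0.036 and 0.0286 TPM at day 6. All lie under the pseudocount of 0.1, so that scale could not show a 2-fold rise there. Without day 3 replicate 1 the day 6 rise was 1.94 and no longer called (edgeR adjusted p 0.056), and library-size scaling put the day 9 difference from MEF at -0.88, under 2-fold. On the opposite strand the gene overlaps Arhgap9, which reached at most 2.17 TPM in any library, and the antisense gene Gm47200, not analysed here. Whether strand was used in counting is not given in the sources used here. Gas1 and Gli3 likewise overlap opposite-strand genes, Gm48488, not analysed here, and Gm6556, at most 0.631 TPM in any library.

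Gli1 and Ptch1, the usual pair of readouts, therefore moved in opposite directions at day 3, each past the threshold. Per kb, Gli1 was at 0.369 and 0.350 times the Ptch1 level in MEF, 0.00141 and 0.00284 at day 3, 0.0523 and 0.0481 at day 9 and 0.992 and 1.00 in ESC.

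Gli2 (ENSMUSG00000048402.12, chromosome 1, 118834132 to 119053619), the main activator downstream of Smo in many tissues, traced a valley. It was at 40.2 and 37.4 CPM in MEF, 26.1 and 26.5 at day 3, 11.8 and 11.9 at day 6, 3.95 and 3.36 at day 9 and 52.7 and 52.6 in ESC. Every stage was separate from the others. Gli2 fell from day 3 to day 6, with a log2 difference of -1.15 (standard error 0.07, adjusted p by edgeR 1.8e-09), and again to day 9, with -1.70 (standard error 0.09, adjusted p by edgeR 4.0e-09), and was higher in ESC than at day 9 by 3.86 (standard error 0.07, adjusted p by edgeR 8.0e-15). ESC against MEF gave 0.44 (standard error 0.05), under 2-fold. On TPM the falls at days 6 and 9 were not called, at -0.78 and -0.53 on log2(TPM + 0.1). The TPM of the day 9 libraries was 1.24 and 0.402 on 123 and 133 reads. The short transcript Gli2-009, of 367 bases, held 7.9 and 0.0 of those reads, and its part in the TPM difference was not tested. Gli2-001, the main transcript, had 391.1 and 388.0 reads at day 6 and 113.2 and 123.0 at day 9.

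Gli3 (ENSMUSG00000021318.13, chromosome 13, 15463235 to 15730026), the main source of Gli repressor, declined evenly. It was at 89.5 and 90.1 CPM in MEF, 67.7 and 68.2 at day 3, 52.2 and 53.1 at day 6, 37.1 and 35.7 at day 9, then 21.8 and 21 in ESC. No stages overlapped, and each was below the one before. No single step reached 2-fold, and on log2(TPM + 1) neither did day 9 against MEF, at -0.96. In CPM, day 9 was below MEF by a log2 difference of -1.30 (standard error 0.04, adjusted p by edgeR 9.5e-13) and ESC by -2.07 (standard error 0.04, adjusted p by edgeR 1.5e-14).

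**Figure D3:**
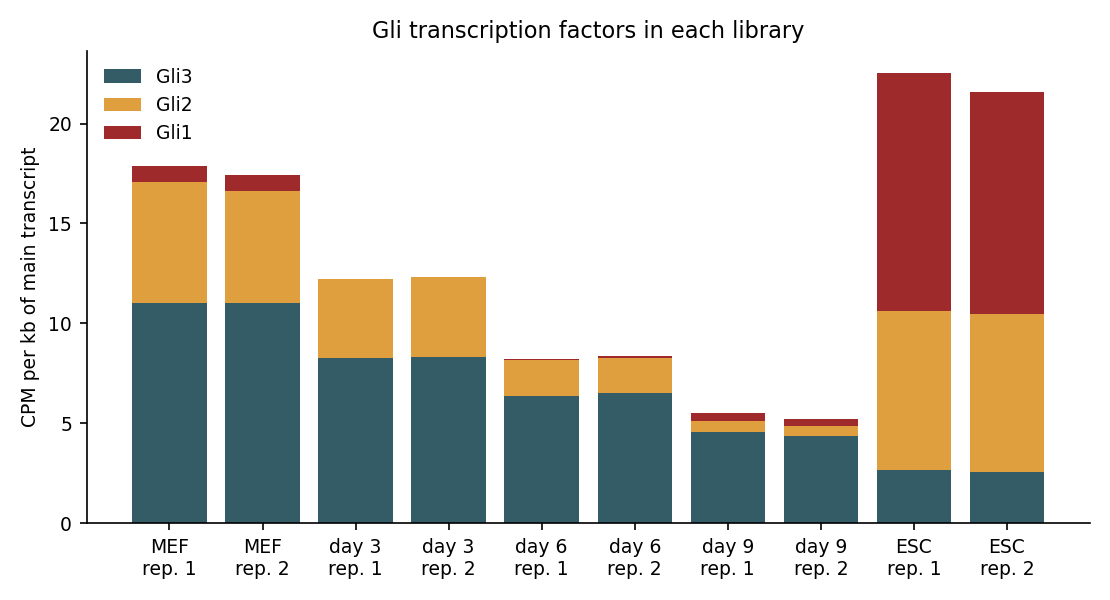
Level of Gli3, Gli2 and Gli1 (stacked bars, CPM per kb of each gene's main transcript, axis from 0) in each of the 10 libraries. The bars shrink from 17.8 and 17.4 in MEF to 5.50 and 5.22 at day 9, mostly Gli3, and stand at 22.6 and 21.6 in ESC, mostly Gli1 and Gli2.

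Set per kb of transcript, so that the 3 genes could be compared, Gli3 made up 61.5% and 63.2% of Gli transcripts in MEF, 67.8% and 67.6% at day 3, 77.6% and 77.9% at day 6 and 82.6% and 83.7% at day 9, but 11.8% and 11.9% in ESC. Gli1 took 53.0% and 51.5% in ESC and between 0.1% and 6.6% in all other libraries. Gli2 took 35.2% and 36.6% in ESC, close to its 34.0% and 32.3% in MEF, and 10.8% and 9.7% at day 9. The repressor-forming member thus gained share at each induced stage and was the smallest part in ESC.

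Hhip (ENSMUSG00000064325.3, chromosome 8, 79965851 to 80058006) was the least abundant member by CPM in ESC and low throughout. Its read counts were 24 and 35 in MEF, 8 and 11 at day 3, 29 and 24 at day 6, 20 and 15 at day 9 and 69 and 89 in ESC, or 0.215 to 2.38 CPM. The ESC libraries were highest and the day 3 libraries lowest. Hhip was lower at day 3 than in MEF (log2 difference -1.85, standard error 0.40, adjusted p by edgeR 9.9e-04), rose by 1.54 to day 6 (standard error 0.41, adjusted p by edgeR 0.0049) and was higher in ESC than at day 9 by 2.13 (standard error 0.35, adjusted p by edgeR 8.5e-05). Day 9 against MEF gave -0.96 (standard error 0.37, adjusted p by edgeR 0.031), just under 2-fold, and passed at -1.36 without day 9 replicate 1 and at -1.09 without MEF replicate 1. On TPM the changes at days 3 and 6 did not pass, with adjusted p from limma of 0.13 and 0.074 on log2(TPM + 0.1). Day 3 levels were 0.0227 and 0.12 TPM, so a pseudocount of 0.1 understates those changes.

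ESC were compared with MEF beside the fibroblast markers, because the ESC grew on feeders. The 15 markers stood in ESC at 1.11% to 22.4% of their MEF level, with a median of 8.37%. Gas1, at 1.96%, lay within that range. Boc, at 15.7%, lay below Vim, at 22.4%, and above all the other markers, the next being Thy1 at 14.0%. Gli3, at 23.8%, Smo, at 28.2%, and Sufu, at 56.9%, lay above the range. Gli2 stood at 136% of its MEF level, Hhip at 226%, Ptch1 at 527% and Gli1 at 1460%. What feeder cells contributed to the members in ESC was not tested. At day 9 the same markers stood at 0% to 11.9% of MEF, with a median of 0.265%. Gas1, at 0.315%, lay near that median. Vim alone set the top of the range (624 CPM at day 9, 5240 in MEF). Gli2, at 9.42%, lay below Vim and above all the other markers, such as Prrx1 (20.5 CPM at day 9, 713 in MEF). Above the range, Gli1 was at 44.6%, Hhip at 52.3%, Boc at 47.9%, Gli3 at 40.5%, Smo at 71.4%, Sufu at 91.6% and Ptch1 at 319%.

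**Figure D4:**
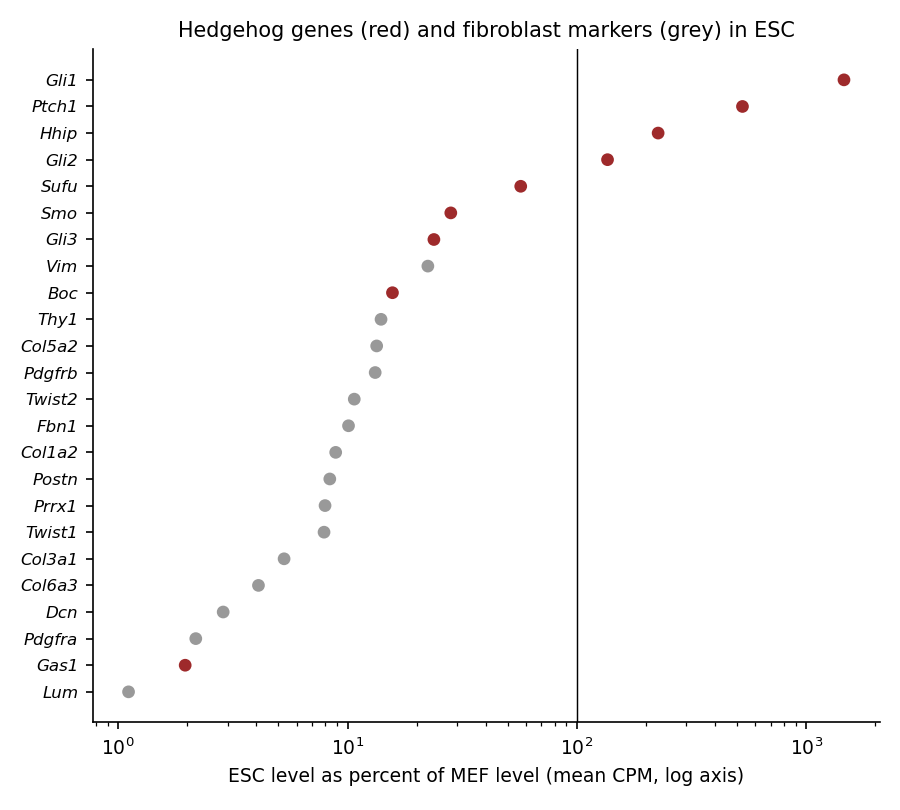
ESC level as a percent of the MEF level (mean CPM, log axis) of the 9 members in red and 15 fibroblast markers in grey, in order of value. Gas1 lies among the markers, Boc lies above all of them but Vim, and Gli1, Ptch1, Hhip and Gli2 lie to the right of the line at 100%.

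Beyond the members, 50 genes of the pathway were read by role. The ligands were scarce: over both libraries of a stage, Shh had 7 reads in MEF, 0 at day 3, 1 at day 6, 2 at day 9, and ESC had 6, and Ihh had between 1 and 7. A count of 0 allows up to 0.0423 CPM of Shh at day 3 (3 reads over the stage). Dhh, the only ligand with enough reads to test, had 97 reads in MEF, 5 at day 3, 10 at day 6, 21 at day 9, and ESC had 77. Dhh was called lower at day 3 than in MEF (log2 difference -4.45, standard error 0.50) and higher in ESC than at day 9 (1.84, standard error 0.40).

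Of 9 genes of ligand release and uptake, day 9 against MEF had 2 called higher and 7 lower, where 24.1% and 19.8% of all genes were called. Their median log2 difference was -1.76, against 0.19 over all genes. Among those lower, Disp2 (35 reads in MEF, 10 at day 9, over both libraries) and Scube2 (35 and 7) had few reads. ESC against MEF had 3 higher and 4 lower, where 25.5% and 20.6% of all genes were called, with a median of -0.55 against 0.1. Scube3, a secreted protein of a family that helps release ligand, rose from 5.39 and 5.67 CPM in MEF to 85.0 and 89.3 at day 3, and was at 95.2 in both day 9 libraries and 18.8 and 18.0 in ESC. Its relative Scube1 went from 10.8 and 11.1 CPM in MEF to 0.225 and 0.354 at day 9, with 1.36 and 2.27 in ESC.

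Most cilium and kinase genes were not called. Of 14 ciliary regulators of Smo and Gli, 3 were higher at day 9 than in MEF, near the 24.1% of all genes, with a median log2 difference of 0.20 against 0.19 over all genes. In ESC against day 9, 3 were lower, where 14.3% of all genes were, with a median of -0.51 against 0.0 over all genes. ESC against MEF gave a median of -0.33 against 0.1. Intu and Fuz, which work together in building cilia, stood at 7.20 and 7.26 CPM and at 10.1 and 9.63 CPM in MEF and at 18.3 and 19.7 and 22.6 and 23.4 CPM at day 9, both called. Gpr161, a ciliary receptor that keeps the pathway low, was at 17.4 and 18.1 CPM at day 9 and 7.28 and 7.34 in ESC. Of 12 genes for Gli kinases and degradation, 4 were called lower at day 9 against MEF, beside 19.8% of all genes, with a median of -0.58 against 0.19 over all genes. Among them were Prkar1a, a regulatory subunit of protein kinase A (450 and 453 CPM in MEF, 178 and 184 at day 9), Stk36 (10.3 and 12.2, then 3.54 and 3.11 CPM) and the kinase Dyrk2 (28.0 and 27.7, then 9.90 and 10.2 CPM).

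Of 12 genes often used as readouts of Gli activity, 11 were tested, and day 9 against MEF had 3 called higher and 4 lower, beside 24.1% and 19.8% of all genes. Their median was -0.05, and Foxl1 lies below it both as fitted and at its bound. Foxl1, a forkhead factor, had 0 reads at day 9 against 42 in MEF, at least 16.5-fold lower. Foxf1 and Foxf2, also called lower, were low in MEF too, at means of 3.22 and 1.22 CPM. They had 4 and 5 reads at day 9 over both libraries, against 193 and 75 in MEF. In ESC against MEF 2 were higher and 6 lower, beside 25.5% and 20.6% of all genes, with a median of -1.39. Mycn, a growth-promoting factor, went from 1.33 and 1.01 CPM in MEF to 2.45 and 2.57 at day 3, 31.0 and 30.4 at day 6, 59.4 and 59.2 at day 9 and 95.2 and 98.3 in ESC. The Notch ligand Jag2 went from 0.406 and 0.183 CPM in MEF to 58.2 and 58.6 at day 9, with 21.2 and 23.0 in ESC. Bmp4, a signalling ligand, was at 40.7 and 40.5 CPM in MEF, 30.1 and 30.3 at day 3 and 2.76 and 2.78 at day 6, a log2 difference of -3.44 (standard error 0.08). These genes also answer to other pathways, so their counts are no measure of Gli activity alone.

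**Figure D5:**
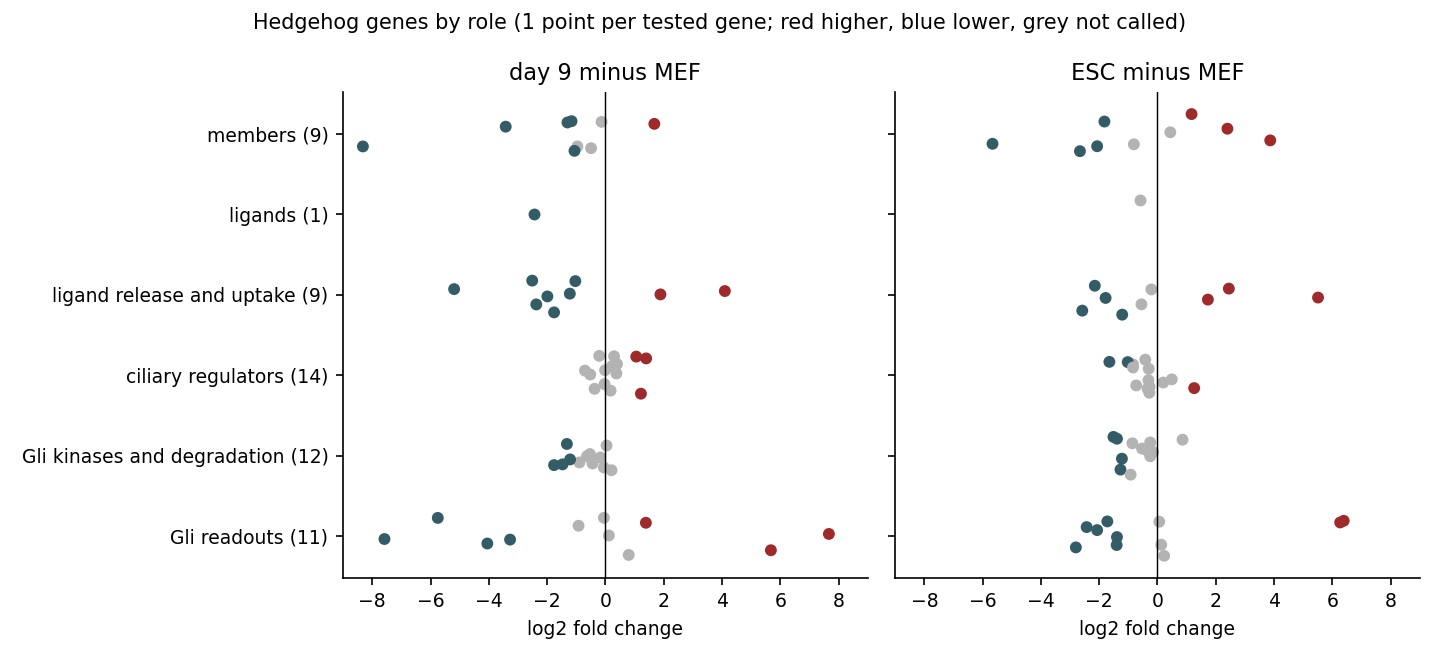
Log2 fold change (horizontal) of each tested gene of the pathway by role (rows, number of genes in brackets), day 9 minus MEF on the left and ESC minus MEF on the right; points are spread vertically at random within a row. Ciliary genes lie mostly near 0, with medians of 0.2 on the left and -0.33 on the right. Kinase and degradation genes lie mostly below 0, with medians of -0.58 and -0.70. The members, ligand release genes and readouts spread to both sides.

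The genes closest in pattern were found by Pearson correlation of log2 CPM over the 10 libraries among 12339 protein-coding genes at 5 CPM or more in some stage. The libraries form 5 pairs of replicates, so these values describe 5 stages and carry no test. Smc3 (r = 0.998), a cohesin subunit, Npm1 (0.997) and Gnpat (0.996) were nearest to Ptch1, with smaller ranges, Smc3 from 99.3 CPM in MEF to 208 in ESC. Creld2 (0.993), Tex15 (0.989) and Trappc13 (0.986) were nearest to Gli1, though with far smaller ranges, Creld2 from 29.3 CPM at day 3 to 63.2 in ESC. Camkk1, Ncoa1 and Xkr8 (0.987 each) were nearest to Gli2, also with smaller ranges, Xkr8 from 3.99 CPM at day 9 to 9.68 in ESC. Sh3pxd2b (0.999), Invs (0.997), which encodes the ciliary protein inversin, and Hipk3 (0.996) were nearest to Gli3. Calu, Tgfbi (both 0.998) and Unc45a (0.997) were nearest to Gas1. Tgfbi, an extracellular matrix protein, went from 351 CPM in MEF to 3.44 at day 9. The ranges of the others were far smaller than that of Gas1, with Calu from 1470 to 291 CPM and Unc45a from 72.2 to 34.2.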

How the data were processed

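Single-end RNA-seq was deposited as 1 transcript table per library (109617 transcripts). Per the file headers, the authors deposited estimated counts, not normalized, and TPM values, scaled by effective length. The submitters' processing notes name Salmon 0.8.2 and mm10; the annotation release and filters are not given in the sources used here, and effective lengths were identical in all tables. Per the labels, a stranded poly(A) kit was used.

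Estimated counts were summed per gene, rounded, filtered with filterByExpr (minimum count 10, total 15) and TMM-scaled. The main test was edgeR 4.0.16 (R 4.3.3) quasi-likelihood over all 10 libraries with a mean per stage, adjusted by Benjamini-Hochberg over 20165 genes. Standard errors were taken as |log2 difference| / sqrt(F). The smallest p of an exact two-sided permutation test is 0.333 for 2 libraries per stage, so p-values come from this fit. TPM was tested with limma 3.58.1. DESeq2 1.42.0, other filters, scalings, a replicate block and leaving out each library were alternatives. Replicates differed by more than sampling noise (chi-square per degree of freedom 2.78 to 5.05). On simulated counts for day 3 with MEF (19059 genes, 200 changed), edgeR called 93.9% of 4-fold and 50% of 2-fold changes, with 1 false call. Every simulated gene had the same biological coefficient of variation, 3.75%, so false calls may be understated for genes that vary more. A true 2-fold change lies on the 2-fold minimum for a call, so the 50% follows from that minimum.

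For levels between genes, CPM was divided by the length of the transcript with most reads. Named were all members and, in each role list, up to 3 genes at 5 CPM or more in some stage with the largest change of day 9 or ESC against MEF. Shh, Ihh, Dhh, Foxl1, Foxf1, Foxf2, Disp2, Scube2 and Cdon were named outside this rule, as were the fibroblast markers Vim, Prrx1 and Thy1. A gene that this rule names is not reported here. The members and lists were chosen with earlier results of these data known. Coordinates are from GENCODE M21 (GRCm38), matching 98.8% of gene IDs.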

Additional observations from a re-analysis of the deposited data

How the results depend on the processing

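Without single libraries left out, 426 of 479 log2 fold changes of members kept their direction and their side of the threshold, 25 lost the call, 21 gained it and 7, all of Sufu, changed sign: for day 3 with MEF, -0.07 with DESeq2, -0.04 with a filter of 10 CPM in 2 libraries and -0.01 in a fit of only the 2 groups; for day 6 with day 3, 0.03 with limma on either TPM scale; for day 9 with day 6, 0.01 with the 10 CPM filter; for day 9 with MEF, 0.16 with library-size scaling. The cause was not tested. In limma with log2(TPM + 1), calls of members numbered 0 up and 1 down in the first step (MEF to day 3), 0 and 1 in the second, 0 and 0 in the third, 2 and 1 in the fourth (day 9 to ESC), and 2 down between MEF and day 9. A pseudocount of 1 or 0.1 TPM understates changes of genes below it. With log2(TPM + 0.1) they numbered 0 up in the first step, 0 and 1 in the second and 1 down in the third. Dropping the 2-fold minimum gave 2 up and 6 down in the first, 6 down in the second, 2 and 4 in the third, 4 down in the fourth and 8 down between MEF and day 9. For day 6 with day 3, 1 member was higher with the 10 CPM filter, which removed Hhip, and in the fit of only the 2 groups, which removed Gli1. Library-size scaling, which shifted the median of all genes to 0.482 for day 9 with MEF, left 3 lower there. With each replicate left out in turn, 213 of 216 values kept their call, and members higher at day 6 than at day 3 numbered 1 to 2. No paired origin is stated for equal replicate numbers, and deviations of same-numbered libraries correlated between -0.02 and 0.022. The replicate block gave 1 higher and 3 lower members for day 3 with MEF, as without it, and changed none of the 54 calls. Fewer than 10 Gli1 reads per library at days 3 and 6, and of Shh and Ihh throughout, make counting error large for those values.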
